A study of Mus musculus with 6 samples.

Results

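The troponin genes are described here at the level of chromatin that was captured with LncMyoD, a long non-coding RNA encoded near Myod1. Their 8 members (Tnnc1, Tnnc2, Tnni1, Tnni2, Tnni3, Tnnt1, Tnnt2 and Tnnt3) were taken by name from 21887 protein-coding genes of the RefSeq table of GRCm38.p6, the assembly behind mm10. Every peak that overlapped the span of a member, or the 20 kb on either side of it, was counted. DNA came from differentiated C57BL/6 myotubes, made by keeping primary myoblasts for 2 days in DMEM with 2% HS. All 6 libraries share this strain, medium and time: 2 from an odd-numbered probe pool, 2 from an even-numbered pool and 2 from input without a target. In ChIRP, biotin-labelled DNA probes that hybridise to one RNA pull down that RNA with the DNA held to it, and the recovered DNA is sequenced. The labels name no treatment or genotype that separates groups, so there was no contrast between conditions. RNA was not measured, so the labelled cell type was not tested against its markers.

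The deposited values were 2 peak lists, 1 per replicate, each named by a label that the odd, even and input libraries of that replicate share. They held 157214 and 179630 peaks, and the fold enrichment of each peak over the caller's background is the authors' own value. The median folds were 8.08 and 8.11, with interquartile ranges of 5.37 to 15.8 and 5.25 to 15.6. Sequencing depth is unknown, and a single list per replicate gives no SD. The labels do not say that the replicates were separate cultures, so the spread between lists may be technical. A shared region is the union of peaks of both lists that overlap by at least 1 bp. The assembled chromosomes held 97115 of these, placed in order of the mean percentile of −log10 q in the 2 lists, place 1 being the strongest.

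Troponin is the calcium switch of striated muscle, a complex of 3 subunits on the thin filament. Troponin C binds calcium, troponin I holds actin and myosin apart when calcium is low, and troponin T ties the complex to tropomyosin. Each subunit has isoforms for slow skeletal, fast skeletal and cardiac muscle. Slow genes are Tnnc1, Tnni1 and Tnnt1, fast genes are Tnnc2, Tnni2 and Tnnt3, and cardiac genes are Tnni3 and Tnnt2. Tnnc1 encodes the troponin C of both slow muscle and heart. Tnnt2, although cardiac in the adult, is also made in embryonic skeletal muscle. Genes of troponin I and T lie in pairs in the genome: Tnni1 and Tnnt2 on chromosome 1 are 25325 bp apart, and Tnnt1 and Tnni3 on chromosome 7 are 2329 bp apart. Tnni2 and Tnnt3, on chromosome 7 as well, are 54360 bp apart. The windows of the first and second pair overlap by 14675 and 37671 bp, so a region in the overlap counts for both genes of the pair.

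Promoter sequences show where the captured DNA lay relative to gene starts. RefSeq windows of GRCm38.p6, from 250 bases before a start to 50 bases after it, were matched for 6 of the 8 genes, with 8 windows in all because Tnni1 and Tnnt2 have 2 each. None of the 8 windows overlapped a peak of either list or a shared region. Among 21263 such windows of protein-coding genes, 9.92% overlapped a shared region, 10.4% a peak of replicate 1 and 12.7% a peak of replicate 2. With shares this low, none of 8 does not set these starts apart. Tnni2 and Tnnt3 have no window. At the lower-coordinate end of Tnni2, replicate 2 alone had a peak 104 bp outside the gene and another from 15 to 832 bp inside it. The starts of Tnnc2 and Tnnt1 are shown because they came closest to a shared region, 674 and 1405 bp from the window. Tnnt2 is shown as a cardiac start with 5 E-boxes. A neighbour's start is added, that of a Syt8 transcript beside Tnni2, because it was the only window of this kind that a shared region around the troponin genes covered. Each is given 5′ to 3′ on the strand of its gene, with E-boxes in capitals, the motif CANNTG that MyoD and other bHLH factors bind.
Tnnc2, chr2:164779685-164779984, minus strand: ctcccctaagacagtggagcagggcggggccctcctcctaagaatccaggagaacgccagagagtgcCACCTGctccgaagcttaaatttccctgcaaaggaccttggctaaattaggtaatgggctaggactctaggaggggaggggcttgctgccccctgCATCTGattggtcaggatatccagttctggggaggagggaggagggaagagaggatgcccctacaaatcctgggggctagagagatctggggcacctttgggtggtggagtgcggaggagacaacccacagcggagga
Tnnt1, chr7:4515926-4516225, minus strand: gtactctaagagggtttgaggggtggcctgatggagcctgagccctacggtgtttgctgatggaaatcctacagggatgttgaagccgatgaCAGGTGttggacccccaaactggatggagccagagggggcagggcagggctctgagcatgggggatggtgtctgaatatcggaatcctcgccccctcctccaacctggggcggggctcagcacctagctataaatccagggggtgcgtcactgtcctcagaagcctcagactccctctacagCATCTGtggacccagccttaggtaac
Tnnt2, chr1:135836084-135836383, plus strand: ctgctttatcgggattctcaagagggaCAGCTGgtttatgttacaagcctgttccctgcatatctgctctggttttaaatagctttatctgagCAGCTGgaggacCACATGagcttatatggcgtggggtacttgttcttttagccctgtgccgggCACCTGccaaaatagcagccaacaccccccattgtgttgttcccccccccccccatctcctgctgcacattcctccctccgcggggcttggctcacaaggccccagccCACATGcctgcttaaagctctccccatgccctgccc
Syt8, chr7:142436584-142436883, plus strand: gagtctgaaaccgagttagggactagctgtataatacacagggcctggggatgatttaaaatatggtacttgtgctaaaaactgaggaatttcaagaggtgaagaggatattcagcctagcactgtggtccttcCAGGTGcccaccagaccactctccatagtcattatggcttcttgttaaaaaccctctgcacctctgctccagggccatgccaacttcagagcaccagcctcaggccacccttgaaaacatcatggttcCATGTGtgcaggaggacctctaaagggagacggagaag

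All 8 member windows held at least 1 E-box, as did 69.0% of the promoter windows of protein-coding genes (both strands searched). The narrower form CAGCTG, which every count of CANNTG includes, was present in both windows of Tnni1, which overlap and hold the same match, and in the first window of Tnnt2, against 15.6% of all windows. MCAT, the TEAD motif CATTCC, was present in Tnnc1 and in the first window of Tnnt2, against 13.6%. No match to the MEF2 site or the CArG box of SRF was found in the 8 windows, and these motifs were in 2.74% and 1.52% of all windows. A match here is a string of letters and not a site of binding.

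All 8 troponin genes had a shared region in the gene or within 20 kb, from 1 to 5 each. The same held for 89.6% of protein-coding genes, and for 88.9% of the 10890 genes whose span lies between the shortest and the longest troponin gene (2574 to 27957 bp), so the count does not set the troponin genes apart. Inside the gene itself, 5 of the 8 had a shared region (Tnni1, Tnnt1, Tnnc2, Tnnt3 and Tnnt2), against 56.4% of all protein-coding genes and 46.5% of those of like span. Each of the 8 also had a peak in either list taken alone, as did 94.7% of protein-coding genes in replicate 1 and 96% in replicate 2. In all there were 18 distinct regions: 5 inside a troponin gene, 8 inside another protein-coding gene and 5 outside such genes. A region of the strongest 10% lay near 1 of the 8, Tnnc2, against 28.9% of all genes and 24.4% of those of like span. Median folds over the 18 regions were 9.55 in replicate 1 and 13.0 in replicate 2, beside 11.0 and 12.0 over all shared regions. Their median width was 654.5 bp, beside 749 bp. Exon positions are not in the gene table used here, so regions inside genes are not divided into exons and introns.

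**Figure D1:**
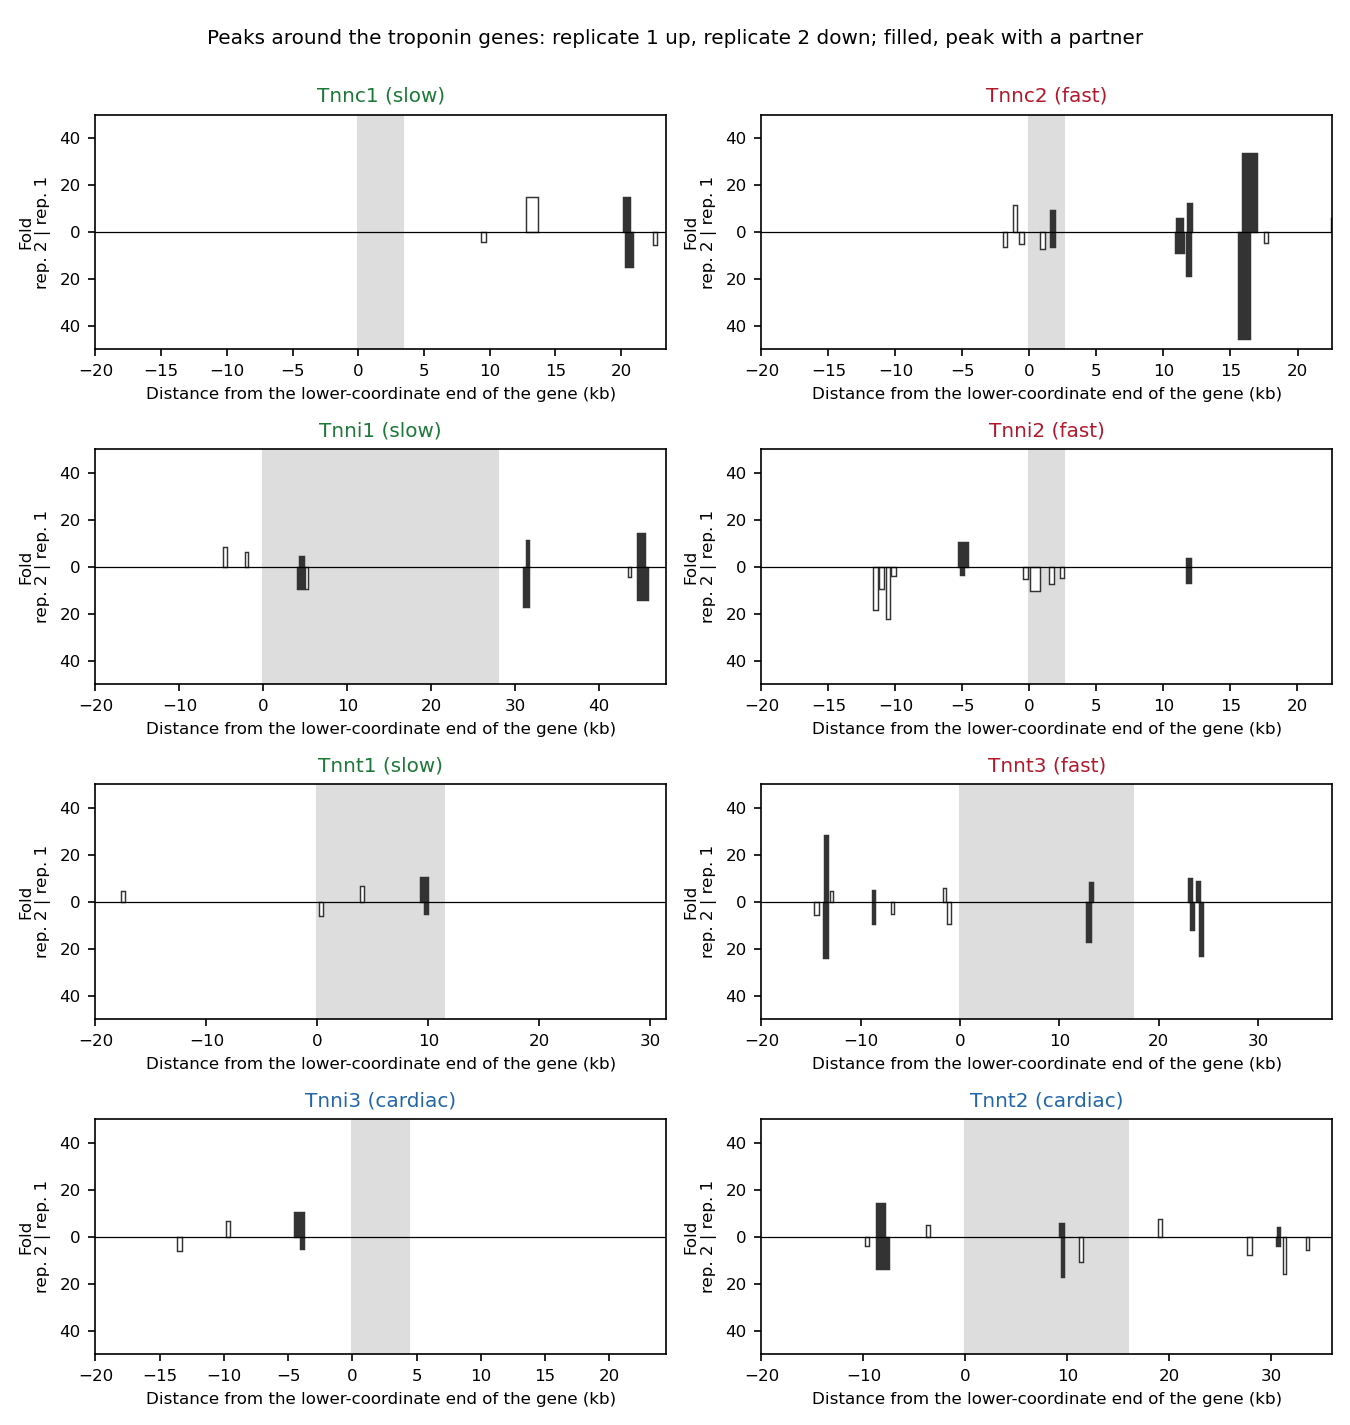
Peaks around each troponin gene by distance in kb from its lower-coordinate end, with fold enrichment upward for replicate 1 and downward for replicate 2; the grey band is the gene, filled bars are peaks with a partner in the other list and open bars are peaks without one. Bars narrower than 0.35 kb are drawn at that width. Tnnc2 carries the highest bars (33.4-fold and 45.4-fold), and around Tnni2 8 of the 10 downward bars are open.

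Troponin C, the calcium sensor, differed between its genes. Tnnc2, the fast isoform (chromosome 2, 164777161 to 164779734, minus strand), had 4 shared regions, and 30.4% of genes of like span had as many or more. Tnnc1, the slow and cardiac isoform (chromosome 14, 31208312 to 31211729), had 1, as 88.9% of genes of like span had at least 1. The region inside Tnnc2 lay from 164778741 to 164779010, its midpoint 859 bp past the start, with folds of 9.18 in replicate 1 and 6.49 in replicate 2. It was among the weaker regions, at place 67440 of 97115, with both folds below the medians of all shared regions. The strongest region near any troponin gene, from 164792699 to 164794110, lay 12964 bp from Tnnc2 and 13670 bp upstream of its start. Its folds were 33.4 and 45.4 and its place 7379. It overlapped the sorting nexin gene Snx21 and the peroxisomal thioesterase gene Acot8, so by position it lies in these genes and not in Tnnc2. Another pair lay in Snx21, of 12.3-fold and 18.6-fold (164788834 to 164789277) and of 5.90-fold and 8.96-fold (164788015 to 164788669). The single region of Tnnc1, from 31228432 to 31229202, had nearly equal folds in the lists, 14.7 and 14.8. It lay 16702 bp past the gene, inside Sema3g, a semaphorin gene. Replicate 1 also had a peak of 15.1-fold inside Sema3g that overlapped none of replicate 2.

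Troponin I, the inhibitory subunit, had from 1 to 3 regions at each of its 3 genes, none of them in the strongest 10%. Tnni1, the slow isoform (chromosome 1, 135783033 to 135810989), had 3. The one inside the gene, from 135787067 to 135787916, had folds of 4.77 and 9.57. It lay 11930 bp upstream of the nearest start in the promoter table, within the longer span that RefSeq gives the gene. A region 2956 bp past the gene (135813946 to 135814719) had folds of 11.6 and 17.3, with summits 5 bp apart. The third, inside the anchoring protein gene Lad1 (135827513 to 135828816), had folds of 14.3 and 13.9, and it also falls in the window of Tnnt2. Tnni3, the cardiac isoform (chromosome 7, 4518305 to 4522718), had no region of its own: the only one in its window lies inside Tnnt1, 3784 bp away.

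Tnni2, the fast isoform (chromosome 7, 142441816 to 142444410), showed the largest gap between the lists, with 2 peaks in replicate 1 and 10 in replicate 2. Both peaks of replicate 1 had a partner. The first of the resulting regions (142436512 to 142437227) was 4588 bp from the gene inside Syt8, a synaptotagmin gene, and it covered all 300 bases of the Syt8 promoter window printed above. Its fold was 10.7 in replicate 1 and 3.55 in replicate 2, with summits 89 and 43 bp before that start. The other, 9203 bp past the gene (142453614 to 142453819), had folds of 3.92 and 6.79. The other 8 peaks of replicate 2 had no counterpart, and the nearest peak of replicate 1 was 4138 to 6917 bp away. They form 2 groups. Between 10019 and 11313 bp below the gene there were 4 peaks of 18.2-fold, 9.41-fold, 22.2-fold and 3.80-fold. At the gene itself there were another 4: 5.25-fold at 104 bp outside it, and 10.2-fold, 7.41-fold and 4.94-fold inside. These last 3 covered 1317 of the 2595 bp of Tnni2. Without replicate 2 the gene would hold no peak, and without replicate 1 it would hold 3.

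Troponin T, which joins the complex to tropomyosin, had the gene with the most shared regions at 1 bp of overlap. Tnnt3, the fast isoform (chromosome 7, 142498771 to 142516213), had 5, and 17.4% of genes of like span had as many or more. The region inside the gene, from 142511489 to 142512154, had folds of 8.46 and 17.3. A pair past the higher-coordinate end had folds of 9.92 and 12.0 at 5549 bp and of 8.95 and 23.2 at 6373 bp. On the other side, inside Lsp1, a gene of an actin-binding protein of leukocytes, the folds were 28.3 and 24.1 at 13291 bp from Tnnt3 (142485001 to 142485479, place 16914) and 5.14 and 9.57 at 8570 bp. The strongest of the 5 was therefore in a neighbouring gene, as it was for Tnnc2. With a reciprocal overlap of 50%, and also with summits within 200 bp, Tnnt3 kept 2 regions and Tnnc2 kept 4.

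Tnnt1, the slow isoform (chromosome 7, 4504569 to 4515975), had a single shared region (4513793 to 4514520), of 10.7-fold in replicate 1 and 5.11-fold in replicate 2. Its midpoint lay 1819 bp past the start. Each list also had a weak peak elsewhere in Tnnt1 that the other lacked, of 6.61-fold in replicate 1 and 6.24-fold in replicate 2. Tnnt2, the cardiac isoform (chromosome 1, 135836315 to 135852268), had 3 regions, of which the one in Lad1 is shared with Tnni1. The region inside Tnnt2, from 135845458 to 135845999, was higher in replicate 2 (17.0-fold) than in replicate 1 (5.88-fold). The last, 14590 bp past the gene, was among the weakest in the genome, with folds of 3.98 and 4.02 and place 96231. Replicate 2 had a peak of 10.8-fold inside Tnnt2 and one of 15.9-fold past it, neither with a partner.

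**Figure D2:**
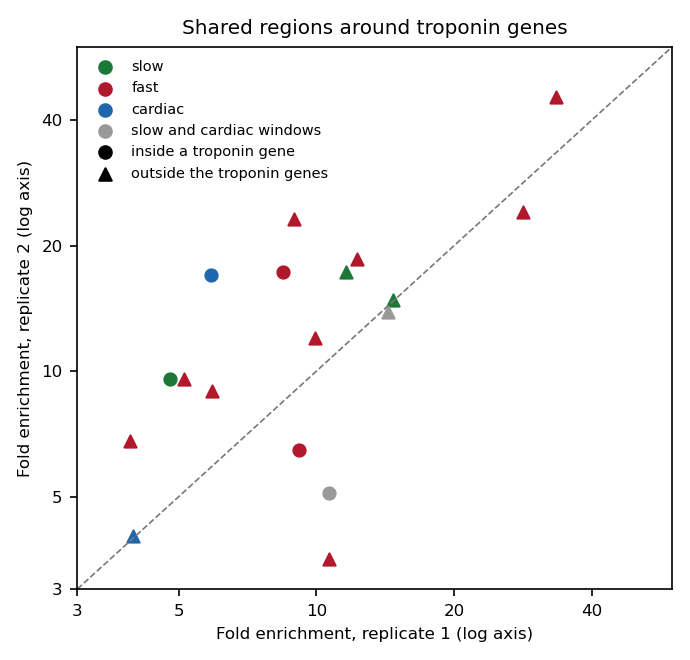
Fold enrichment of the 18 shared regions in replicate 1 (horizontal) and replicate 2 (vertical), both on log axes, coloured by class; circles lie inside a troponin gene, triangles outside, and the dashed line marks equal folds. Of the 18, 13 lie above the line (72.2%), and the highest point is the region near Tnnc2 at 33.4-fold and 45.4-fold.

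The lists were then compared within the 18 regions, which by definition hold overlapping peaks. Their summits were a median of 39.5 bp apart, beside 74 bp over all shared regions, and at most 543 bp apart, inside Tnni1. Fold was higher in replicate 2 at 13 of the 18 (72.2%), and at 53.6% of all shared regions. Of the 29 distinct peaks of replicate 1 around the troponin genes, 18 had a partner (62.1%), and of the 42 of replicate 2, 18 did (42.9%). Over the whole lists the shares were 67.2% and 57.8%. Of the 24 peaks of replicate 2 without a partner, 8 lay around Tnni2, and 9 of the 24 were within 1000 bp of a peak of replicate 1. Of the 11 in replicate 1, 4 were. The medians of these unpartnered peaks were 6.24-fold and 6.36-fold.

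Slow, fast and cardiac genes were then set side by side, with the windows of a class merged and each region counted once per class. The 2 regions that lie in windows of 2 members, in Lad1 and in Tnnt1, count for both the slow and the cardiac class. The fast genes had 11 shared regions in 142.612 kb, the slow genes 5 in 162.782 kb and the cardiac genes 4 in 100.368 kb. These are 0.771, 0.307 and 0.399 regions per 10 kb. Over single genes of like span the interquartile range ran from 0.218 to 0.740, with a median of 0.459. It is set beside single troponin genes here, and it is not a range for the merged windows of a class. Tnnc2 (0.940) and Tnnt3 (0.870) were above that range, and 13.2% and 17.7% of genes of like span were as dense or denser. Tnni2 (0.470), Tnni1 (0.441), Tnnt2 (0.536), Tnnc1 (0.230) and Tnni3 (0.225) were within it, and Tnnt1 (0.195) was below. Each fast gene was denser than each slow gene, and Tnni2 was less dense than Tnnt2. Of the class of 11, 9 came from Tnnc2 and Tnnt3. Each list alone gave the fast class the highest density as well: 15 fast, 10 slow and 7 cardiac peaks in replicate 1, and 26, 10 and 10 in replicate 2. The members are 8 genes of one genome and no replicates, and no test was run between classes.

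**Figure D3:**
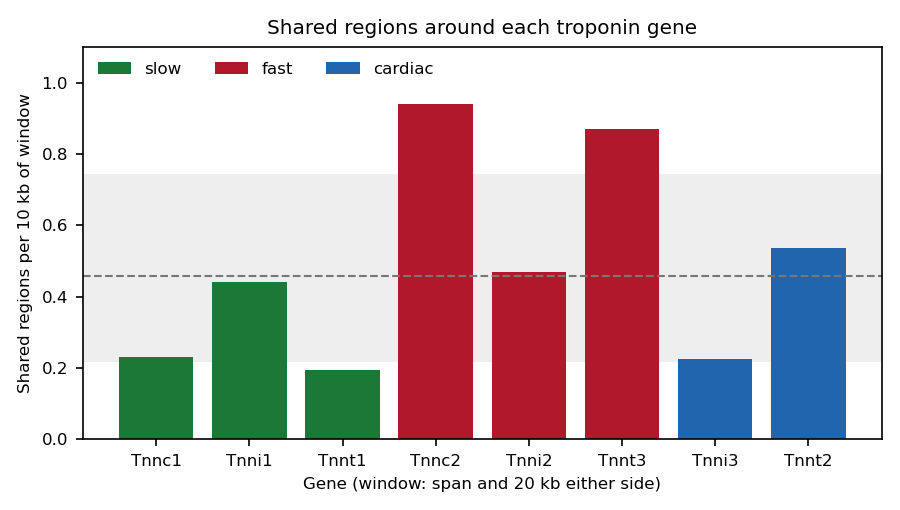
Shared regions per 10 kb in the window of each troponin gene (span and 20 kb either side), coloured by class; the dashed line is the median of the 10890 protein-coding genes of like span (0.459) and the grey band their interquartile range (0.218 to 0.740). Tnnc2 and Tnnt3 stand above the band and Tnnt1 below it.

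The contrast between classes depended on distance. Inside the genes there were 2 fast, 2 slow and 1 cardiac region. At 5 to 10 kb from the gene there were 6 for the fast genes (3 at Tnnt3, 2 at Tnnc2, 1 at Tnni2), 0 for the slow and 1 for the cardiac. This step spans 30 kb in all for the fast and the slow genes and 20 kb for the cardiac, and its 6 fast regions are the larger part of the 11. Without it the densities were 0.444 fast, 0.377 slow and 0.373 cardiac regions per 10 kb, a setting chosen after the data were seen. Every step holds fewer than 20 regions of a class. At 10 to 20 kb the counts were 2, 2 and 1. From 20 to 50 kb the order turned. Summed over genes, there were 14 regions for the slow genes (0.778 per 10 kb), 10 for the fast (0.556) and 13 for the cardiac (1.08), against 0.496 around all genes of like span. With windows of 50 kb the cardiac class was therefore the densest, at 0.771 per 10 kb, against 0.614 for the fast and 0.554 for the slow. Tnnt1 and Tnni3 had 7 regions each at 20 to 50 kb, beyond 1 nearer region that they share. These genes lie 2329 bp apart, so their flanks at that distance overlap. A region in the overlap counts for both the slow and the cardiac class, so the counts of these classes are not separate. Tnni2 and Tnnt3 lie 54360 bp apart, so a region within 20 kb of one can count again at 20 to 50 kb from the other. With each region counted once, the fast class had 11 regions within 20 kb and 17 within 50 kb.

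**Figure D4:**
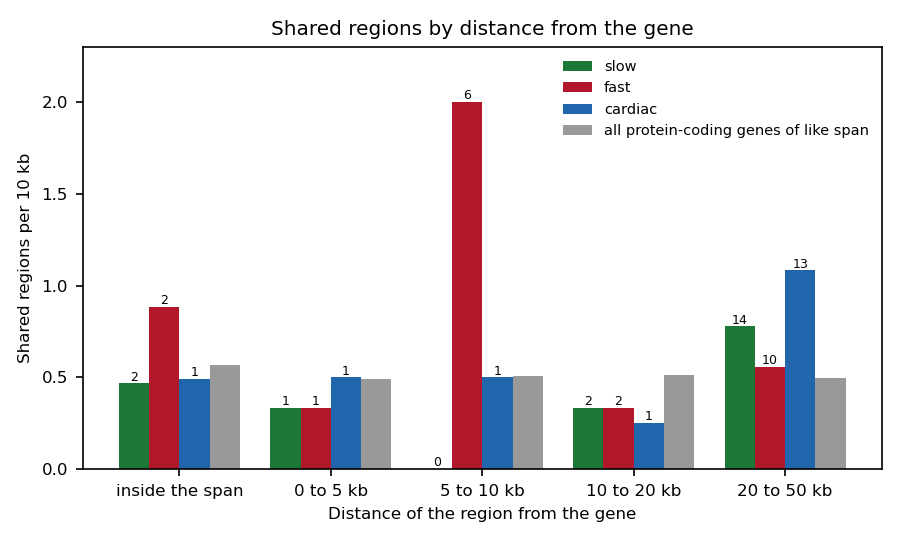
Shared regions per 10 kb by distance from the gene, for slow, fast and cardiac troponin genes and all protein-coding genes of like span (grey). The number of regions stands over each coloured bar. A region near 2 genes counts for each, whether they are of the same class or of different classes. The fast bar at 5 to 10 kb rests on 6 regions, and at 20 to 50 kb the cardiac bar is the highest, with 13.

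Other genes of the thin filament and of fibre types were counted in the same windows, beside the 89.6% of all protein-coding genes with a shared region. Of 13 thin filament partners of troponin, 12 had one, all but Klhl41, with a median of 3 regions per gene against 2.5 for the troponin genes and 3 for all genes. Here and below, the best region of a gene was taken from its span and 20 kb either side. It may therefore lie in a neighbouring gene, which was not looked up. The best were in the windows of Nebl, which encodes nebulette of the cardiac Z-disc (60.7-fold and 57.4-fold), and of the tropomyosin gene Tpm1 (46.6-fold and 49.1-fold). Slow fibre genes had 8 of 8, with the best at Casq2, which encodes calsequestrin (65.1-fold and 72.4-fold), and at the myosin-binding protein gene Mybpc1 (45.1-fold and 74.0-fold). Fast fibre genes had 10 of 11, all but the myosin heavy chain gene Myh1. They were led by Pvalb, the calcium buffer parvalbumin (92.6-fold and 79.4-fold), and the light chain gene Mylpf (69.8-fold and 52.3-fold). Median densities were 0.445 per 10 kb in the slow list and 0.476 in the fast list, beside 0.230 (Tnnc1) and 0.870 (Tnnt3) as the medians of the 3 slow and the 3 fast troponin genes. Cardiac genes had 8 of 9, all but Nppb, led by the myosin heavy chain gene Myh6 (76.2-fold and 92.0-fold) and the calcium release channel gene Ryr2 (41.9-fold and 59.0-fold).

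Regulators of fibre type had 11 of 12 members near a shared region, all but Vgll2, led by the nuclear receptor gene Esrrg (79.7-fold and 79.1-fold) and Tead1, whose product binds the MCAT motif (54.4-fold and 72.6-fold). Of calcium sensors with EF-hands, the family of troponin C, 5 of 6 had one, all but Calml3, led by Pvalb again and by the calmodulin gene Calm3 (54.0-fold and 48.5-fold). Smooth muscle genes had 6 of 6, led by Tagln (39.6-fold and 47.5-fold) and Acta2 (40.4-fold and 23.5-fold). Liver and neuron genes had 9 of 10, all but Ttr, led by Rbfox3 (90.7-fold and 75.4-fold) and Syt1 (59.8-fold and 65.2-fold). Each of these best regions was higher than any around the troponin genes in at least 1 list. They were picked as the 2 strongest of each gene list, so this difference follows in part from the choice. The windows of the genes in this paragraph and the last also held unlike numbers of shared regions, from 1 at Tagln to 36 at Rbfox3. Shares from 83.3% to 100% in all lists lie around the share of all genes, so none is read as a property of its list.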

How the data were processed

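ChIRP-seq peak lists of 2 replicates were analysed. MACS2 2.1.1, Bowtie2 2.3.2, Picard 2.9.2 and the build mm10 are listed in the submitters' processing notes without order or settings. Not given in the sources used here are the threshold of the calls and the libraries behind them. Fold enrichment (a ratio to the caller's background), −log10 q and the summit's distance from the peak start were deposited by the authors for each peak. No read counts were used, and no interval that needs depth is given. Folds are used only within a list or side by side.

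Peaks were joined into shared regions at 1 bp of overlap and counted in gene spans and 20 kb either side, with genes and promoters from RefSeq tables of GRCm38.p6. Density is regions per 10 kb of window. The tables hold no strand for Tnni2 and Tnnt3, so their sides are given by coordinate. Members, classes and gene lists were chosen with earlier results of these data known. Named genes are the 8 members, protein-coding genes over their shared regions, and the 2 genes of each list with the strongest region. Peaks of one list only and distance steps were looked at after the values were seen. Joining of peaks was tested on simulated data with planted partners. Versions were numpy 2.4.6, scipy 1.17.1, pandas 2.3.3 and matplotlib 3.10.9, under Python 3.11.15.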

Additional observations from a re-analysis of the deposited data

How the results depend on the processing

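No paired analysis was possible because the result comes from no test and the lists carry 1 column per replicate without groups. Among 14 alternatives, the fast class was the densest in 12. The exceptions were windows of 50 kb, with 19 slow, 17 fast and 17 cardiac regions (0.554, 0.614 and 0.771 per 10 kb), and the 10000 peaks of highest −log10 q, which left 0 regions in every class (0 per 10 kb) and 0 of 8 genes. There the best region, near Tnnc2, fell out because its peak ranks 12117 in replicate 1. Of the 12, midpoints in place of overlap and leaving out the top 1% by fold returned the main densities. Counting Tnnc1 as cardiac left the fast density unchanged. The setting without the step from 5 to 10 kb is not among the 14. Gene spans alone gave 5 of 8 genes and 2 slow, 2 fast and 1 cardiac region, and windows of 5 kb gave 3, 3 and 2. Slow and fast counts were equal in both settings. The fast densities were higher (0.884 against 0.467, and 0.570 against 0.412 per 10 kb) because the fast spans are shorter, 22.612 kb against 42.782 kb. A reciprocal overlap of 50% left 7 fast regions and 6 of 8 genes, without Tnnt1 and Tnni3. A region was found at 7 of 8 genes with folds of at least 5 (without Tnni2), with windows of 5 kb (without Tnnc1) and with each region given to the nearest gene alone (without Tnni3). The overlap of 50%, folds of at least 5, summits within 200 bp and giving each region to the nearest troponin gene alone each gave a slow density of 0.246 per 10 kb. The cardiac density was 0.299 in each. In that order the fast density was 0.491, 0.631, 0.561 and 0.771, so all but the last were below the main value of 0.771. Without the step from 5 to 10 kb, added after the data were seen, 5 fast regions were left and the densities were 0.444 fast and 0.377 slow. With Tnnc1 counted as cardiac the slow density was 0.335. In peaks of a single list the counts were 10 in both for slow, 15 to 26 for fast and 7 to 10 for cardiac, with 0.614 in both, 1.05 to 1.82 and 0.697 to 0.996 per 10 kb. A −log10 q of at least 5, midpoints in place of overlap, and leaving out the top 1% by fold moved no class by more than 1.5 times in count. Without read counts, how depth limits the missing peaks of either list is unknown.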

Other observations

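Peaks found in replicate 2 alone were counted around Tnni2 and set against genes of like span, a comparison chosen after its values were seen. Its 8 such peaks compare with a median of 2, and 0.45% of the 10890 genes of like span had as many or more. Over all protein-coding genes, longer ones included, 6.67% did. A surplus of 8 peaks or more in replicate 2 over replicate 1 was reached by 0.119% of the genes of like span. The 8 peaks around Tnni2 ranged from 3.80-fold to 22.2-fold. The median over all peaks of replicate 2 without a partner was 5.87. Which libraries of replicate 2 gave these peaks was not analysed here.

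Shared regions covered 6.53% of the window of Tnnc2, 4.61% of that of Tnnt3 and 4.31% of that of Tnni1, against a median of 4.07% for genes of like span. Tnnt1 (1.42%), Tnni3 (1.64%), Tnnc1 (1.78%), Tnni2 (2.16%) and Tnnt2 (3.85%) were below that median.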
